A study of Mus musculus with 2 samples.

Results

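Plasmacytoid dendritic cells (pDCs), the dendritic cells specialised in type I interferon production, were described through 10 genes of transcription factors that set or oppose their identity. These are the E protein genes Tcf4, Tcf3 and Tcf12, the inhibitor genes Id2 and Id3, the Ets factor genes Spib and Spi1, the zinc finger genes Bcl11a and Zeb2, and the leucine zipper gene Nfil3. They were chosen by name, and each was read from the probe set whose only gene symbol in the platform annotation is that name. All 10 were found among 19938 named genes, with 1 probe set each. Transcripts were measured on 2 Affymetrix Mouse Gene 1.0 ST arrays. The first held RNA of pDCs from chimeras rebuilt with Runx2-/- fetal liver, and the second held RNA of pDCs from chimeras rebuilt with wild-type fetal liver. In both groups the bone marrow was taken 2 months after reconstitution, and CD11b- BST2+ B220+ cells were sorted. The labels give neither the age of the mice, nor how many were pooled, nor how much of the marrow was still of host origin. Runx2 was not analysed here, so the genotype labels were not checked on the deleted gene.

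E proteins are basic helix-loop-helix factors that bind DNA as dimers at E-boxes, the letters CANNTG. Id proteins share the dimerisation domain but lack the basic region, so a dimer with an Id protein does not bind DNA. In the textbook account Tcf4 specifies pDCs and keeps them from becoming conventional dendritic cells, the antigen-presenting sister lineage in which Id2 is high. Spib, Bcl11a and Zeb2 act on the pDC side of this balance, while Nfil3 acts with Id2 in conventional dendritic cells. Runx2 is known as a factor that acts in pDCs downstream of Tcf4, and the comparison asks how the transcripts of pDCs differ without it.

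Because Spib and Id3 had the differences furthest from 0 in the 2 directions, the 250 bases before their annotated starts are shown first, 5′ to 3′ on the coding strand, with E-boxes in capitals. The sequences are from RefSeq (build GRCm38.p6). Spib lies on the minus strand at chr7:44532072-44532321, and Id3 on the plus strand at chr4:136143572-136143821.
Spib: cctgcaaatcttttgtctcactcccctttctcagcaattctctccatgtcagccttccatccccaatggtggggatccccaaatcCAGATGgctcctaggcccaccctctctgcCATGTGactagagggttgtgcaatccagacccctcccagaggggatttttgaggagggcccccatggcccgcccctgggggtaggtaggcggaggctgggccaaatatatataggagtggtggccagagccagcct
Id3: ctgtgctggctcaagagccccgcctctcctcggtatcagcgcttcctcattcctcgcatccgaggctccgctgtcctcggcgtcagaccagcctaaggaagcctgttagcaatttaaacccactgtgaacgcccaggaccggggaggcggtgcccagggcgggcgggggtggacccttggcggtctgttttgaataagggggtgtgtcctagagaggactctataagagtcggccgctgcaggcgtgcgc
The Spib stretch held 2 E-boxes, CAGATG beginning 165 bases and CATGTG beginning 136 bases before the start, and the Id3 stretch held 0. Over whole windows, from 250 bases before to 50 after a start, RefSeq gave 13 windows for 8 of the 10 genes. Tcf4 and Spi1 were the other two. An E-box was present in 8 of the 13 windows, from 6 of the 8 genes, and in 72.3% of all 32851 promoter windows of the same length. Zeb2 and Tcf12 had several windows each, and some Zeb2 windows overlapped, so the 13 are not independent. No Zeb2 window held an E-box. The E-box CAGCTG, one form of CANNTG, was found in 1 window each of Tcf12, Id2 and Nfil3, and in 16.3% of all windows. CAGGTG or its complement CACCTG, the E-box form that Zeb proteins also bind, was in 0 of the 13 windows and in 20.2% of all. The Runx letters TGTGGT or their complement ACCACA were in 0 of the 13 and in 16.8% of all. An Ets motif, GAGGAAGT or its complement ACTTCCTC, was in 1 window, of Tcf12, and in 3.20% of all. Both strands were searched, and a match is only a match of letters.

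Every value below rests on 1 array per genotype, so no difference has a replicate check, an error or a test, and differences are described by size. Levels are deposited RMA intensities (robust multi-array average, the probe summary of the Affymetrix platform) on a linear scale, or their log2. Differences are log2 of the Runx2-deficient value minus log2 of the wild-type value. As a yardstick, each difference was set against those of 10337 named genes that reached the median level of the named genes on one array or both (log2 levels of 7.54 for the Runx2-deficient and 7.61 for the wild-type array). Of the 10 genes, 9 passed this brightness filter, and Nfil3 did not. In bulk samples such as these, fewer cells expressing a gene and less RNA per cell cannot be told apart.

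None of the 10 genes was 2-fold apart between the arrays. In the background of named genes past the filter, 0.793% stood 2-fold or more above and 1.17% 2-fold or more below their wild-type level, so 0 of 10 is near the background. At 1.5-fold, 0 of the 10 were higher and 1 was lower, Spib, against 3.02% higher and 3.86% lower in the background. The same background shares are the yardstick for the counts in other gene lists below. The 10 differences ran from -0.69 (Spib) to 0.57 (Id3), with 8 below 0 and a median of -0.26. Over all named genes past the filter the median was -0.014 and 51.9% were below 0. Nfil3 is outside that background, and among the 9 genes past the filter the median was -0.24. Over all 19938 named genes, without the filter, the median was -0.033 and 11299 were below 0.

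**Figure D1:**
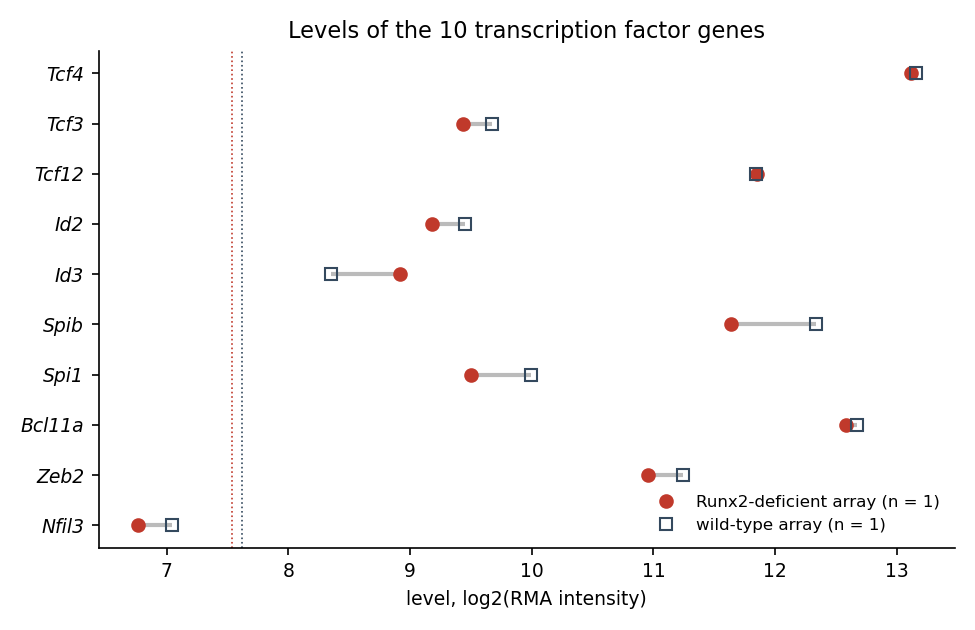
Level of each of the 10 genes, as log2 of the RMA intensity, on the Runx2-deficient array (filled circle) and the wild-type array (open square), 1 array each. Dotted lines mark the brightness filter on each array; pairs are to be compared within a gene only. The Spib, Spi1 and Id3 pairs lie furthest apart, the Tcf4 and Tcf12 pairs nearly coincide, and Nfil3 lies below the filter on both arrays.

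The E protein genes were at close levels on both arrays. Tcf4, the E protein gene that specifies pDCs, was at 8863 intensity units in Runx2-deficient pDCs and 9136 in wild-type pDCs. The difference of -0.044 was small by the yardstick, since 87.0% of named genes past the filter differed at least as much. Tcf12, which encodes an E protein best known from T cell development, was at 3702 units in Runx2-deficient and 3667 in wild-type pDCs. Its difference of 0.014 was the closest to 0 of the 10 genes, and 95.9% of named genes differed as much or more. Tcf3, whose products start B cell development, was at 691 units in Runx2-deficient and 817 in wild-type pDCs. The Tcf3 difference of -0.24 was matched or exceeded by 36.5% of named genes. The array reads a gene's transcripts together, so the long and short isoforms known for Tcf4 were not told apart.

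The Id genes differed in opposite directions. Id3 was at 483 units in Runx2-deficient and 326 in wild-type pDCs, which is 1.48-fold higher (log2 difference 0.57). This was the only one of the 10 genes with a difference above 0.014, and 7.33% of named genes past the filter differed at least as much in either direction. Id2, the inhibitor that favours conventional dendritic cells and innate lymphoid cells, was at 581 units in Runx2-deficient and 701 in wild-type pDCs. Its difference of -0.27 was exceeded or matched by 31.9% of named genes. The Id3 difference thus lay 0.84 above that of Id2 and 0.61 above that of Tcf4 on the log2 scale. Other cells that could bring Id2 or Id3 transcripts include conventional dendritic cells, T cells and NK cells, most of which lack the B220 that the sort required. They also include B cells, which carry B220 and whose markers are given with Spib below. Of 14 conventional dendritic cell markers, Cd8a and Ccr7 were at least 2-fold higher and Itgax at least 2-fold lower, and the median was 0.077. Of the 14, 9 passed the filter, Cd209a, Clec9a, Flt3 and Sirpa among them, and 5 did not, Zbtb46 and Xcr1 among them. The sums of the 14 were 25695 units in the Runx2-deficient and 23786 in the wild-type sample. Cd209a, Clec9a, Flt3 and Sirpa made up most of both sums. The sums thus mainly follow those genes and do not measure how many conventional dendritic cells were present. Of 12 T and NK cell markers, 0 were 2-fold apart, with sums of 2871 units in the Runx2-deficient and 2788 in the wild-type sample. Klrd1 made up most of both of these sums. Granulocyte and monocyte markers, given with Spi1 below, also differed between the arrays. The part of any of these cells in the Id differences was not tested. The remaining family members, Id1 and Id4, were dim. Id1 was at 6.89 in the Runx2-deficient and 7.10 in the wild-type sample and Id4 at 7.30 and 7.43 in the same order (log2 levels), all below the filter.

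Both Ets factor genes were lower in the Runx2-deficient sample. Spib encodes an Ets factor of pDCs and B cells that supports pDC development, and it was at 3195 units in Runx2-deficient and 5165 in wild-type pDCs. That is 1.62-fold lower (log2 difference -0.69), and 4.80% of named genes past the filter differed at least as much. Spi1 encodes PU.1, a master factor of myeloid cells that binds the same core sequence as Spib. It was at 726 units in Runx2-deficient and 1022 in wild-type pDCs, 1.41-fold lower (-0.49), and 10.2% of named genes differed at least as much. The Spib difference lay 0.65 below that of Tcf4, of which Spib is a known target.

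Granulocyte markers also stood lower on the Runx2-deficient array, and granulocytes express Spi1. The sort excluded CD11b, which granulocytes and monocytes carry. The granulocyte marker Ngp was at 296 units in the Runx2-deficient and 7231 in the wild-type sample. Of 17 measured granulocyte markers, 14 were at least 2-fold lower and 0 higher, and their intensities summed to 3197 units in the Runx2-deficient and 19746 in the wild-type sample. Monocytes and macrophages express Spi1 too. Of 12 of their markers, 2 were at least 2-fold lower and 0 higher, with sums of 2965 and 5003 units, Runx2-deficient first. At 1.5-fold, 3 were lower and 2 higher, C1qb and Csf1r, and 5 of the 12 were above 0. For Spib the nearest other source is the B cell, whose 12 measured markers had 1 gene at least 2-fold higher (Cd22) and 1 lower (Blk). The B cell sums were 4530 units in the Runx2-deficient and 4356 in the wild-type sample, to which Cd79b contributed 2397 and 2000 units in that order. Of the 12 markers 9 were below 0, their median was -0.20, and 6 passed the filter; the B lineage master gene Pax5 did not. RMA gives no values of 0, so none of these markers was at 0. The part of such cells in the Spi1 and Spib differences was not tested.

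**Figure D2:**
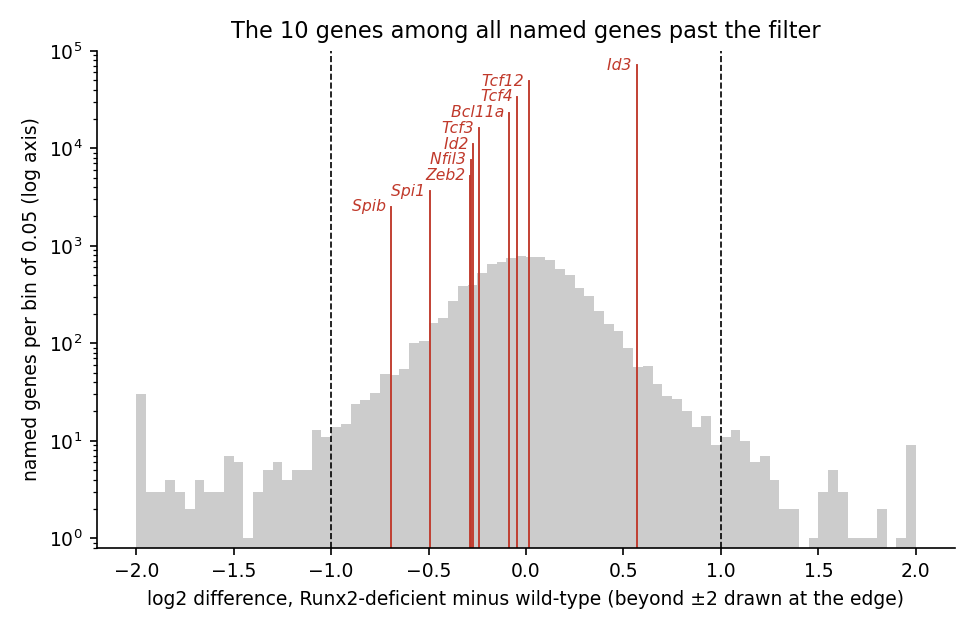
Log2 differences, Runx2-deficient minus wild-type, of the 10 genes (red lines with names; line height only separates the names) over a histogram of the 10337 named genes past the filter (grey, log axis). Dashed lines mark 2-fold. All 10 lines lie inside the dashed lines, with Spib at -0.69 and Id3 at 0.57 furthest out.

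The zinc finger genes were at or slightly below their wild-type levels. Bcl11a, which encodes a repressor needed for pDC and B cell development, was at 6146 units in Runx2-deficient and 6527 in wild-type pDCs. Its difference of -0.087 was matched or exceeded by 74.4% of named genes past the filter. Zeb2, which encodes a repressor that supports pDC development and represses Id2, was at 1983 units in Runx2-deficient and 2419 in wild-type pDCs (-0.29). Nfil3, which encodes a repressor of Zeb2 in dendritic cell progenitors, was at 108 units in Runx2-deficient and 132 in wild-type pDCs (-0.28). Both Nfil3 levels lie below the filter, where RMA compresses differences. The 3 genes of this known repressor circuit, Nfil3, Zeb2 and Id2, had differences between -0.29 and -0.27. Differences of that size were common, at 30.0% (Nfil3), 29.3% (Zeb2) and 31.9% (Id2) of named genes past the filter. Nfil3 was not itself among those genes.

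Among other helix-loop-helix genes and E protein partners, Bhlhe40, Lyl1 and Arntl differed by more than Spib, and the rest by less. Of 27 measured, 1 was 2-fold or more above and 1 as far below its wild-type level, and the median was -0.12. Lyl1, whose product pairs with E proteins in blood progenitors, was at 1299 units in Runx2-deficient and 633 in wild-type pDCs, 2.05-fold higher. Bhlhe40, which encodes a helix-loop-helix repressor, was at 174 units in Runx2-deficient and 589 in wild-type pDCs, 3.38-fold lower. The Runx2-deficient Bhlhe40 level lies below the filter. Cbfa2t3 encodes a corepressor that E proteins recruit and that keeps Id2 low in pDCs. It was at 931 units in Runx2-deficient and 1418 in wild-type pDCs (-0.61), while Id2 itself was also below its wild-type level. Lmo2, which encodes a bridge between E protein dimers and other factors, differed by -0.57. Arntl, a clock gene, and Mxd4, a gene of the Myc and Max network, differed by 0.92 and 0.45, Arntl from a wild-type level below the filter. Lmo2 and its partner gene Tal1, which differed by -0.22, are also expressed in erythroid cells, which lack the B220 used in the sort. The Runx2-deficient Tal1 level lies below the filter. Of 9 erythroid markers, 4 were at least 2-fold lower and 0 higher, with sums of 5789 units in the Runx2-deficient and 6128 in the wild-type sample. Tfrc, the transferrin receptor gene, made up most of both sums and differed by 0.44. The part of erythroid cells in these differences was not tested.

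Among 23 other Ets family genes none was 2-fold apart, and the median difference was 0.014. Erg, an Ets gene of stem and progenitor cells, came closest, at 247 units in Runx2-deficient and 125 in wild-type pDCs (0.99), from a wild-type level below the filter. Elf1 and Etv3 differed by 0.29 and 0.25. On the other side Elf4, Etv5 and Elk1 differed by -0.52, -0.46 and -0.40. Spib, at -0.69, thus lay below all 23, and Spi1, at -0.49, below all but Elf4. Spic, the closest relative of Spib and Spi1, was below the filter on both arrays and differed by 0.28. The paralogs of the zinc finger and leucine zipper genes differed little. Of 5 measured, 0 were 1.5-fold apart, with Tef at 0.091 and Zeb1 at 0.069 above 0, and Dbp at -0.24 and Bcl11b at -0.12 below.

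**Figure D3:**
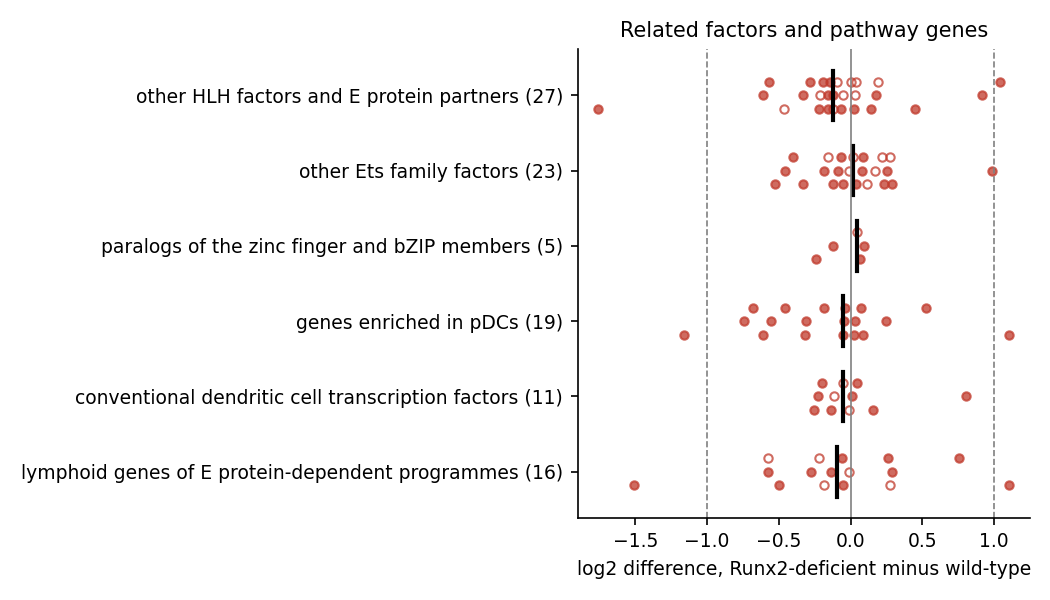
Log2 differences, Runx2-deficient minus wild-type, of the genes in 6 related lists, 1 point per gene, with the number measured in brackets. Filled points passed the brightness filter, open points did not, black bars are medians and dashed lines mark 2-fold. The 6 medians lie between -0.12 and 0.045, and 5 different genes (Lyl1, Dntt, Bhlhe40, Ptprs and Blk) lie past 2-fold.

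Genes enriched in pDCs, many of which Tcf4 or Spib are known to act on, went both ways. Of 19 measured, 7 were above and 12 below 0, and the median was -0.055. At 2-fold 1 was higher and 1 lower, and at 1.5-fold 1 was higher and 4 lower. The background shares at 1.5-fold were 3.02% higher and 3.86% lower. Dntt, the lymphoid DNA polymerase gene, was at 2687 units in Runx2-deficient and 1249 in wild-type pDCs, 2.15-fold higher. Blnk, which encodes an adaptor of B cell and pDC receptors, differed by 0.52, and Tlr7, the sensor gene for single-stranded RNA, by 0.24. Ptprs, which encodes an inhibitory receptor phosphatase of pDCs, was at 1422 units in Runx2-deficient and 3173 in wild-type pDCs, 2.23-fold lower. Lag3, which encodes an inhibitory receptor, and Irf7, the gene of the main inducer of type I interferon, differed by -0.74 and -0.68. The Irf7 difference was matched or exceeded by 4.98% of named genes past the filter.

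Factors of the conventional dendritic cell lineage were near their wild-type levels apart from Bcl6. Of 11 measured, 0 were 2-fold apart and 1 was at least 1.5-fold higher, and the median was -0.054. Bcl6, which encodes a repressor needed by germinal centre B cells, was at 520 units in Runx2-deficient and 298 in wild-type pDCs (0.80). Irf4 and Batf differed by 0.16 and 0.046. Notch2, Irf2 and Klf4 differed by -0.26, -0.23 and -0.20. Batf3, a factor gene of cross-presenting dendritic cells, was at 197 units in Runx2-deficient and 196 in wild-type pDCs. Zbtb46, which marks the conventional lineage, was below the filter on both arrays.

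Lymphoid genes of programmes that depend on E proteins held genes at both ends. Of 16 measured, Dntt was at least 2-fold higher and Blk, a kinase gene of B cells, at least 2-fold lower, and the median was -0.098. Blk was at 230 units in Runx2-deficient and 656 in wild-type pDCs. Cd4 was at 4628 units in Runx2-deficient and 2737 in wild-type pDCs (0.76), and the interleukin-7 receptor gene Il7r differed by 0.29. Cd79a and Igll1, genes of the B cell and pre-B cell receptors, differed by -0.58 and -0.50, Igll1 with a Runx2-deficient level below the filter. The recombinase genes Rag1 and Rag2 and the B lineage factor gene Ebf1 were below the filter on both arrays. Blk, Cd79a, Igll1 and Ebf1 are also among the B cell markers given with Spib above.

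The label of the cells was checked against 12 measured pDC markers, Tcf4 among them, all past the filter on these arrays. Their median difference was -0.046, with 0 genes 2-fold apart. Of the 12, 4 were above and 8 below 0, from -0.74 to 0.13. The furthest below were Lag3 (-0.74), Pacsin1 (-0.56), Ly6d (-0.46) and Bst2, the gene of a protein used in the sort (-0.31). Furthest above was Ptprc (0.13), the gene that encodes B220, which the sort also used. Many of the markers, Siglech, Irf8, Ccr9 and Lag3 among them, are also in the list of genes enriched in pDCs, so these lists are not separate checks. Siglech, a surface receptor of mouse pDCs, was at 12028 units in Runx2-deficient and 11436 in wild-type pDCs, and Irf8, a factor gene of pDCs, at 11055 and 10803 in the same order. The intensity sum of the 12 markers was 68808 units in the Runx2-deficient and 71946 in the wild-type sample. Of the 12 T and NK cell markers 2 passed the filter, Klrd1 and Cd247, and the other markers, Cd3d, Cd3e and Cd3g among them, were below it on both arrays.

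**Figure D4:**
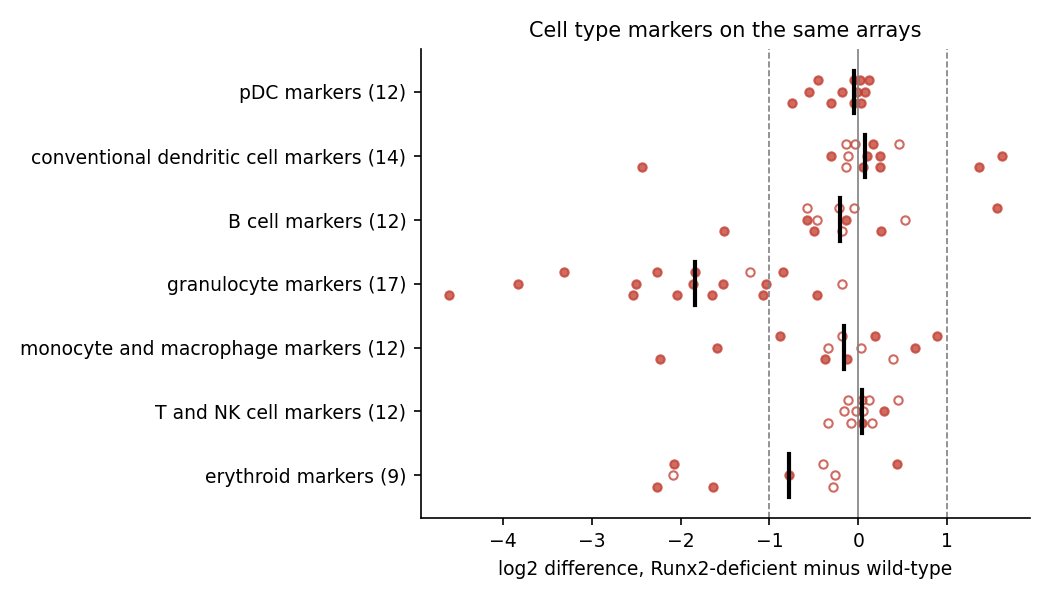
Log2 differences, Runx2-deficient minus wild-type, of cell type markers, drawn as in the plot of related lists. The pDC markers run from -0.74 to 0.13 with a median of -0.046, the granulocyte median is -1.83 and the erythroid median is -0.78.

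The sizes and signs of the 10 differences changed little with the processing. The 4 alternatives were median centring, removal of the trend with intensity, averaging of probe sets and 32 units added before log2. All 40 values kept their sign, but this was in part fixed by the arithmetic. Averaging cannot move a gene with 1 probe set, and adding 32 units to both arrays cannot change a sign. Median centring removes the same shift of -0.033 from every gene, smaller than any of the differences below 0. Spib ran from -0.69 to -0.66, Spi1 from -0.52 to -0.46 and Id3 from 0.53 to 0.60. Tcf4, at -0.044 to -0.010, stayed next to 0. The largest change in any of the 40 values was 0.077, of Nfil3. These alternatives re-use the same 2 arrays and say nothing of how the values would repeat in other mice.

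**Figure D5:**
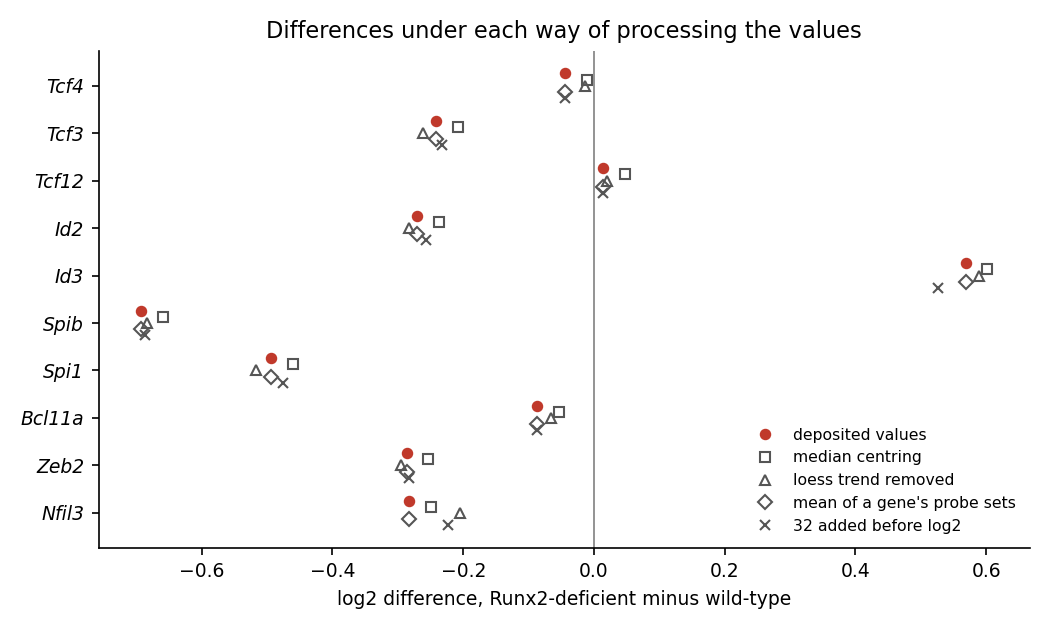
Log2 differences, Runx2-deficient minus wild-type, of the 10 genes from the deposited values (red) and under each of 4 alternatives (grey symbols). Every gene keeps its side of 0, and Spib, Spi1 and Id3 keep the outermost places.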

How the data were processed

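RNA of sorted bone marrow pDCs was measured on 1 array per genotype. The authors deposited intensities, 1 per probe set and array, made with RMA per the submitters' processing notes. They are on a linear scale, from 15.3 to 20364, with medians of 181.7 (Runx2-deficient) and 182.9 (wild-type) over 35556 probe sets. The sources used here do not name the software or say which arrays were normalised together. The number of arrays limits the precision, and the table carries no detection calls.

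Values were taken to log2 and subtracted. Only the 21789 probe sets with 1 gene symbol in the platform annotation were named, and for a gene with several the one with the highest mean was used. The symbols of all 10 genes matched the RefSeq gene table. With 1 array per group no test was run: genes were counted past 2-fold and 1.5-fold. The members and lists were chosen with earlier results of these data known. Named genes are the 10, and up to 3 in each direction from each related list past the filter; Id1, Id4, Tal1, Spic, Batf3, Zbtb46, Rag1, Rag2, Ebf1 and the markers were named beyond this after their values were seen. The counting was tested on simulated data with planted differences of more than 2-fold. These were larger than any of the 10 differences, so the simulation does not bear on differences of their size. The loess fit (span 0.3) used statsmodels 0.14.6, tables pandas 2.3.3 and numpy 2.4.6 under Python 3.11.15, and figures matplotlib 3.10.9.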

Additional observations from a re-analysis of the deposited data

How the results depend on the processing

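The 10 differences kept their sign under median centring, loess, averaging of probe sets and 32 added before log2. Averaging and the added 32 could not have changed a sign. All 40 values moved by less than 0.26, the robust SD of the differences of named genes past the filter. This SD is a spread between genes, not between replicates, and it exceeds the whole difference of Tcf4, Tcf3, Tcf12 and Bcl11a. Each of the 10 genes has 1 probe set, so averaging probe sets changed none of them. Median centring removes a shift of -0.033. The count of the 10 genes at least 2-fold lower was 0, and 1 at a 1.5-fold threshold. Taken over all named genes, without the brightness filter, the background was 0.436% at least 2-fold higher and 0.647% lower. Of 70 list medians under alternatives, 68 moved by less than 0.26; the exceptions were the granulocyte markers, at -1.54 with 32 added, and the erythroid markers, at -1.64 past the filter. That filter kept erythroid genes such as Slc4a1, Car2 and Alas2 only through their wild-type level, so the choice of genes moved with the difference. No paired analysis was possible because each genotype had 1 array, and for the same reason no replicate could be left out. Dim genes such as Nfil3 are limited by signal over background.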
